A study of Mus musculus with 2 samples.

Results

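The Mir200 family comprises 5 microRNA (miRNA) hairpin genes, and its levels were described here in embryonic mouse limb. Its members were chosen by symbol, by matching the gene identifiers of the count files to the GENCODE M21 annotation, and all 5 were found among the 1973 listed miRNA genes. Mir200b, Mir200a and Mir429 form a cluster on chromosome 4, and Mir200c and Mir141 form a cluster on chromosome 6. Small RNA below 30 nucleotides was sequenced from limb of B6NCrl mouse embryos at 11.5 days of gestation, in 2 libraries of a single group without treatment. Replicate 2 was made from 88 pooled embryos and replicate 1 from 109, males and females together, and the labels mark both as healthy. The labels number them as biological replicates but give both the same donor identifier, so every spread below is that between these 2 libraries. The series holds no other tissue, age or genotype.

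A miRNA hairpin is cut to a duplex of about the length of the sequenced fragments, and the strand retained in the silencing complex pairs with messenger RNAs through its seed, bases 2 to 8 from its 5′ end. Mir200 miRNAs are known as markers of the epithelial state that help to maintain it: they repress the transcription factors ZEB1 and ZEB2, which in turn repress both Mir200 clusters and the E-cadherin gene through E-box sequences. The limb bud is a core of mesenchyme covered by a thin ectoderm, whose thickened distal rim, the apical ectodermal ridge, keeps the limb growing out. In whole limb tissue, fewer epithelial cells and less miRNA per epithelial cell cannot be told apart.

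The members fall into 2 groups by the seed of the 3′ arm. The 3′ arm sequences, from RefSeq on GRCm38.p6, are shown because the seed groups are compared throughout, with the seed in capitals.
Mir200b: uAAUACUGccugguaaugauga
Mir429: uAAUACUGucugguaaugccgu
Mir200c: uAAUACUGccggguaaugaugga
Mir200a: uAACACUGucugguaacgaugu
Mir141: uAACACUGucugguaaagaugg

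Mir200b, Mir429 and Mir200c share the seed AAUACUG, and Mir200a and Mir141 share AACACUG, so each cluster holds both seeds. Counted from 1 at the 5′ end, the seeds differ by a single base, U4C from Mir200b to Mir200a and again from Mir200c to Mir141. Within a seed group, Mir200b and Mir200c matched at 20 of 22 bases, differing by U11G and A22G, and Mir200a and Mir141 matched at 20 of 22, differing by C17A and U22G. Mir429 was further from its seed partners, with 4 differences from Mir200b and 5 from Mir200c. Among 1738 mature mouse miRNAs in the RefSeq table, no other carried either seed.

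The counts are given per hairpin and do not separate the arms. The 5′ arms are therefore part of what was counted, and their seeds, again in capitals, divide the family differently.
Mir200b: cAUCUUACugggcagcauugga
Mir200a: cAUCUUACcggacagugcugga
Mir429: gUCUUACCagacaugguuaga
Mir200c: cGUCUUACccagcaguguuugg
Mir141: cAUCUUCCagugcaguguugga

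On this arm Mir200b and Mir200a share AUCUUAC, whereas the other members each have a seed of their own. The whole hairpins of RefSeq are shown next, with the 3′ arm in capitals, because the counts are per hairpin. The counts rest on the earlier annotation M4, whose hairpin boundaries were not compared with these.
Mir200b: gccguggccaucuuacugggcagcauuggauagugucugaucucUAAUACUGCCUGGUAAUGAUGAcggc
Mir200a: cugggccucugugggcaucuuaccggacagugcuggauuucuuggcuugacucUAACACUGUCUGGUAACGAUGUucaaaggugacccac
Mir429: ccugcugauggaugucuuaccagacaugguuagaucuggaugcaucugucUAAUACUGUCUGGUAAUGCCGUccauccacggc
Mir200c: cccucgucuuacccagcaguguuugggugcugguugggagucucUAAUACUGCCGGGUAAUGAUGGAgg
Mir141: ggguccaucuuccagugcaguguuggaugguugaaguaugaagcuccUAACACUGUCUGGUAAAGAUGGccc

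Each hairpin lies on the minus strand of the mm10 assembly. Mir200b (ENSMUSG00000065549) is at chr4:156055681-156055750, Mir200a (ENSMUSG00000065400) at chr4:156054896-156054985 and Mir429 (ENSMUSG00000065427) at chr4:156053905-156053987, a span of 1846 bases. Mir200c (ENSMUSG00000065462) is at chr6:124718322-124718390 and Mir141 (ENSMUSG00000065474) at chr6:124717914-124717985, a span of 477 bases. In GENCODE M21, Mir200b and Mir200a lie in the intron of the noncoding gene Gm13648, Mir429 lies within its last exon, and all 3 also lie in introns of long transcripts of Ttll10, a gene of the tubulin tyrosine ligase-like family. Mir200c and Mir141 lie in introns of the noncoding gene Gm15884, and Mir141 also overlaps part of an exon of Gm29008. The 5′ end of the Mir200b hairpin is 4052 bases downstream of the annotated start of Gm13648, and that of Mir200c is 441 bases downstream of the start of Gm15884.

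All 5 hairpins were detected, with Mir429 the most abundant and Mir200a the least, 15.7-fold apart. Levels are in CPM, counts per 1000000, the sense counts of a hairpin scaled to the sense counts of all miRNA genes in that library, and detection meant at least 10 CPM in each library. Mir429 had 9365 sense counts in replicate 2 and 7158 in replicate 1, or 2707 and 2424 CPM, a mean of 2566 ± 200.4 CPM (SD, n = 2, as for every mean below). Mir200c had 5290 and 4097 counts in replicates 2 and 1, or 1529 and 1387 CPM, a mean of 1458 ± 100.3 CPM. These hairpins lead their clusters, and each was higher in replicate 2.

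Mir200b had 2841 counts in replicate 2 and 2184 in replicate 1, or 821 and 740 CPM, a mean of 780.4 ± 57.8 CPM. Mir141 had 715 and 555 counts in replicates 2 and 1, or 207 and 188 CPM, a mean of 197 ± 13.3 CPM. Mir200a had 586 and 465 counts in replicates 2 and 1, or 169 and 157 CPM, a mean of 163 ± 8.4 CPM. The members carrying the AACACUG seed were thus the lowest of the family in both libraries.

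**Figure D1:**
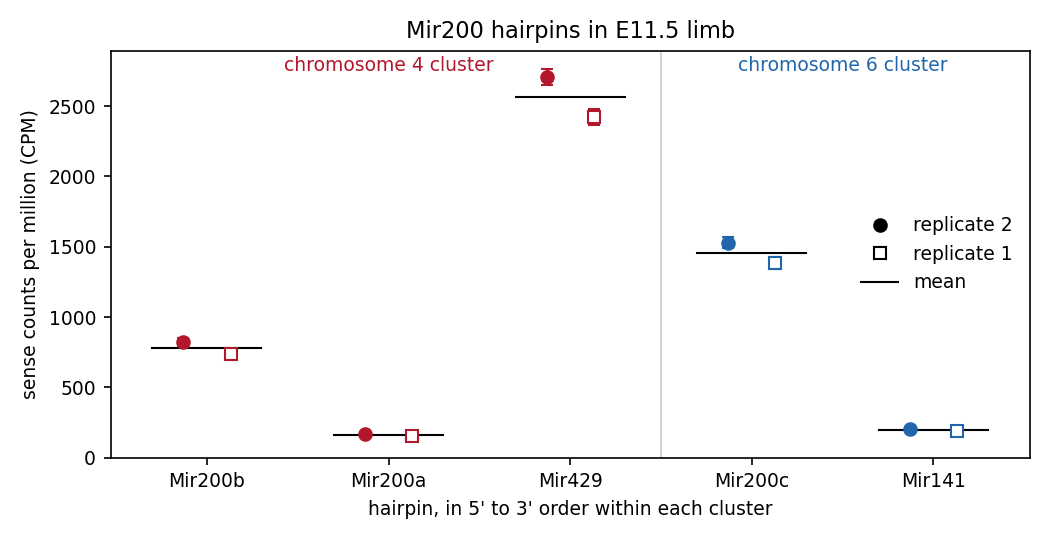
Level in CPM (vertical axis) of each Mir200 hairpin, with filled circles for replicate 2, open squares for replicate 1, black lines for the mean of both, and bars for the Wilson 95% interval of each library's share. Mir429 stands at 2566 CPM and Mir200a at 163 CPM, and for each hairpin replicate 2 lies above replicate 1.

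The order of the members was the same in both libraries: Mir429, Mir200c, Mir200b, Mir141, Mir200a. Mir429 exceeded Mir200c by 0.81 ± 0.01 log2 units, Mir200c exceeded Mir200b by 0.90 ± 0.01, and Mir200b exceeded Mir141 by 1.98 ± 0.01. The closest neighbours were Mir141 and Mir200a, which differed by 0.27 ± 0.02 log2 units. The counting error of that last ratio, 0.08 in replicate 2 and 0.09 in replicate 1, was larger than its SD. The Wilson 95% intervals of the pair did not overlap within either library: in replicate 2 they ran from 192 to 222 CPM for Mir141 and from 156 to 184 CPM for Mir200a, and in replicate 1 from 173 to 204 CPM and from 144 to 172 CPM. Such intervals cover counting error only, because amplified copies are not independent molecules.

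The composition of the family was nearly the same in the libraries. Mir429 made up 49.8% of the family's counts in replicate 2 and 49.5% in replicate 1, Mir200c 28.1% in replicate 2 and 28.3% in replicate 1, and Mir200b 15.1% in each. Mir141 made up 3.80% of them in replicate 2 and 3.84% in replicate 1, and Mir200a 3.12% and 3.22%. No share moved by more than 0.32 percentage points between the libraries.

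The chromosome 4 cluster held more counts than the chromosome 6 cluster. Its 3 hairpins summed to 12792 counts in replicate 2 and 9807 in replicate 1, against 6005 in replicate 2 and 4652 in replicate 1 for the 2 hairpins on chromosome 6. In CPM the sums averaged 3509 ± 266.6 on chromosome 4 and 1656 ± 113.6 on chromosome 6, a ratio of 2.12-fold. The log2 ratio was 1.09 in replicate 2 and 1.08 in replicate 1, a mean of 1.08 ± 0.01, with a counting error of 0.02 and 0.03. With 2 libraries an exact sign-flip test cannot go below p = 0.5, so no test of this or the other within-library ratios was run. Taken as a mean per hairpin, the ratio was smaller, at 0.50 log2 units, since chromosome 4 holds the extra hairpin. As a geometric mean, which also depends on how unequal the hairpins of a cluster are, the ratio was 0.36.

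In summed counts the excess of the chromosome 4 cluster lay in its AAUACUG members, 2 hairpins against 1. Mir200b and Mir429 together exceeded Mir200c by 1.20 ± 0.01 log2 units, with 3346 ± 258.2 against 1458 ± 100.3 CPM. Singly, Mir429 exceeded Mir200c by 0.81 ± 0.01 log2 units, whereas Mir200b lay 0.90 ± 0.01 below Mir200c. Between the AACACUG members, 1 in each cluster, the direction was opposite to that of the sums. Mir200a was lower than Mir141, with a log2 ratio of −0.27 ± 0.02 and 163 ± 8.4 against 197 ± 13.3 CPM. The 3′ arms of Mir200a and Mir141 are identical over their first 16 bases, and their hairpins share a stretch of 17, the longest that any member shares with another of the 1005 hairpins in the RefSeq table. A read of either 3′ arm that ends before base 17 matches both genes, and multimapping reads are in no gene's count; how many such reads there were is not recorded.

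The seed groups differed far more than the clusters. Mir200b, Mir429 and Mir200c together held 17496 counts in replicate 2 and 13439 in replicate 1, against 1301 in replicate 2 and 1020 in replicate 1 for Mir200a and Mir141. In CPM the AAUACUG group averaged 4804 ± 358.5 and the AACACUG group 361 ± 21.7, a ratio of 13.3-fold. The AAUACUG hairpins held 93.1% of the family's counts in replicate 2 and 92.9% in replicate 1. The log2 ratio was 3.73 ± 0.02, with a counting error of 0.04 in replicate 2 and 0.05 in replicate 1. Because arms are counted together, these are ratios of hairpins grouped by their 3′ seed, not of the seeds in mature RNA.

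Within each cluster the AAUACUG members were also in excess. In summed counts the excess was larger on chromosome 4, which sets 2 such hairpins against 1 of the other seed. There Mir200b and Mir429 exceeded Mir200a by 4.35 ± 0.04 log2 units, or 20.5-fold, with 12206 against 586 counts in replicate 2 and 9342 against 465 in replicate 1. On chromosome 6 Mir200c exceeded Mir141 by 2.89 ± 0.002 log2 units, or 7.39-fold, with 5290 against 715 counts in replicate 2 and 4097 against 555 in replicate 1. The clusters differed in this imbalance of sums by 1.49 log2 units in replicate 2 and 1.44 in replicate 1, with a counting error of 0.08 and 0.09. That difference includes the extra AAUACUG hairpin on chromosome 4. Singly, Mir429 exceeded Mir200a by 3.97 ± 0.04 log2 units, and Mir200b exceeded Mir200a by 2.25 ± 0.03, less than the 2.89 on chromosome 6. Levels did not follow the position of a hairpin in its cluster in a single direction: on chromosome 4 Mir200b, the first from the 5′ side, lay between Mir200a, the next, and Mir429, the last.

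**Figure D2:**
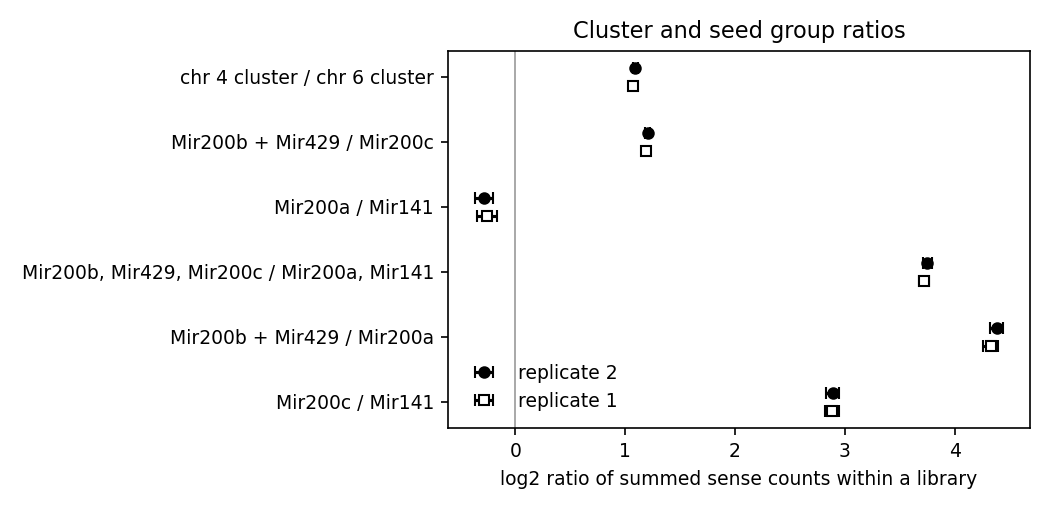
Log2 ratios of summed sense counts within each library (horizontal axis) for the clusters and seed groups named at the left, with filled circles for replicate 2, open squares for replicate 1, and bars for the counting error. The seed group ratios lie between 2.88 and 4.38, the cluster ratio near 1.08, and Mir200a over Mir141 is the ratio below 0.

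The family as a whole was a minor part of the limb miRNAs. It held 0.543% of all sense counts in replicate 2 and 0.490% in replicate 1, a mean of 0.517% ± 0.038. The Wilson 95% intervals, 0.536 to 0.551% and 0.482 to 0.498%, did not overlap. By mean CPM Mir429 ranked 60 among the listed genes, Mir200c 83, Mir200b 106, Mir141 158 and Mir200a 166. The 295 detected genes had a median of 262 CPM, so Mir429, Mir200c and Mir200b lay above the median detected miRNA and Mir141 and Mir200a below it.

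**Figure D3:**
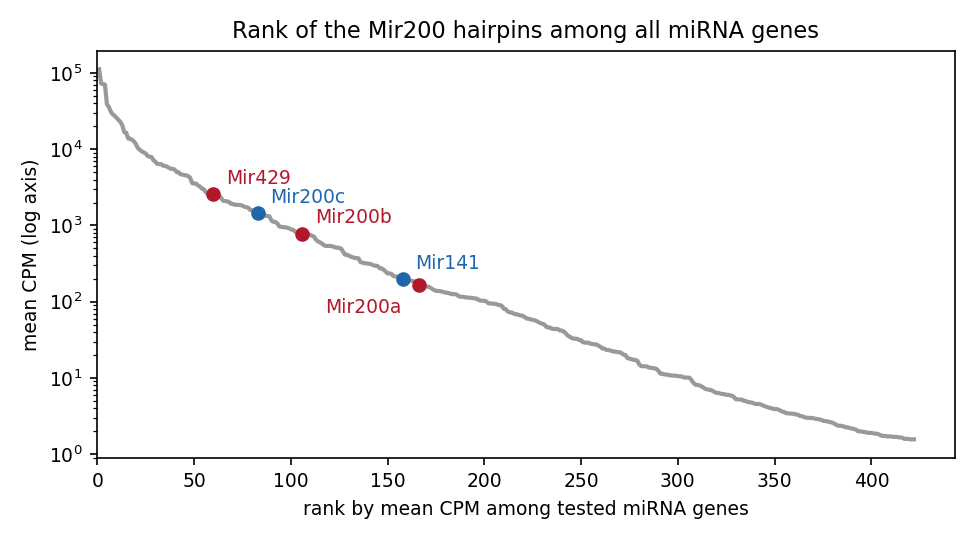
Mean CPM on a log axis against rank for the 422 tested miRNA genes (grey line), with the chromosome 4 hairpins in red and the chromosome 6 hairpins in blue. The 5 hairpins lie between rank 60 (Mir429) and rank 166 (Mir200a).

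By distance over log2(CPM + 1) in the 2 libraries, the gene nearest in level to Mir429 was Mir382 at 0.05 log2 units, and that nearest to Mir200c was Mir34c at 0.07. The nearest to Mir200b was Mir323 at 0.03, to Mir200a Mir345 at 0.06, and to Mir141 Mir493 at 0.12. With 2 libraries of a single tissue this measures likeness of level alone.

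The label of an epithelial family was set against markers of the cells that limb tissue could hold. The other epithelial list, Mir205, Mir203, Mir182, Mir183 and Mir96, was detected in full and held 1.57% of counts in replicate 2 and 1.32% in replicate 1. The log2 ratio of the Mir200 family to that sum was −1.48 ± 0.07. Mir205, which is made by basal epithelium and also represses Zeb1 and Zeb2, was at 5522 ± 565.6 CPM, and Mir203, which promotes the exit of skin progenitors from the cell cycle, at 3541 ± 540.3 CPM. Of the Mir183 cluster, known from sensory cells and epithelia, Mir182 was at 2564 ± 473 CPM, Mir183 at 2071 ± 179.3 CPM and Mir96 at 753 ± 35.5 CPM. Mir429 and Mir182 were thus at like levels, whereas the lowest Mir200 members lay below each of these markers.

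Markers of mesenchyme, from Mir214 at 39072 CPM to Mir199a-1 at 32.6 CPM, were detected in all 8 cases and held 6.02% of counts in replicate 2 and 6.35% in replicate 1, and the log2 ratio of the Mir200 family to them was −3.58 ± 0.16. Endothelial markers, nearly all of their counts from Mir126a and the lowest from Mir222 at 22.2 CPM, held 2.42% in replicate 2 and 2.43% in replicate 1, and the log2 ratio of the family to them was −2.23 ± 0.11. Of the remaining lists, 5 of 6 blood, 5 of 6 skeletal muscle and 6 of 7 neural genes are listed in the files. The family exceeded the blood list, which ran from Mir155 at 413 CPM to Mir150 at 4.80 CPM, by 2.21 ± 0.06 log2 units. It exceeded the counts listed for skeletal muscle by 3.18 ± 0.08 and those listed for neural genes by 4.60 ± 0.03. Both of these sums rest on 1 gene: Mir206, a muscle miRNA, gave 1909 of 1992 counts in replicate 2 and 1561 of 1653 in replicate 1, and Mir137, a neuronal one, gave 756 of 764 and 598 of 604. In the muscle list Mir1a-1, Mir133a-1 and Mir133a-2 had no sense count, and in the neural list Mir124a-1, Mir124a-2, Mir124a-3 and Mir9-2 had none. Each of these is 1 of several near-identical copies, so a count of 0 does not limit the mature miRNA, and the muscle and neural ratios do not measure how the family stands to those mature miRNAs.

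The libraries were compared gene by gene as a measure of spread, not of a condition. For the 422 genes with 10 or more counts in all, the split of counts between the libraries was tested against their TMM-scaled sizes (exact binomial test, two-sided, Benjamini-Hochberg adjustment over all 422). All 5 Mir200 hairpins had log2 ratios of replicate 2 over replicate 1 above 0, between 0.09 and 0.15, and 3 passed, against a background of 9.48% of tested genes called higher in replicate 2. Their median log2 ratio was 0.13, beside 0.00 over all tested genes, of which 50.7% lay above 0. Without regard to sign, the median log2 ratio was 0.08 over the 201 tested genes with a mean of 100 CPM or more. The backgrounds given here and below cover genes of every tested count, and genes with more counts pass more readily. Hairpins of a cluster lie on a common annotated host, so the 5 ratios need not be independent.

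Mir429 had a log2 ratio of 0.15 with a counting error of 0.02 (adjusted p = 1.1e-09, exact binomial test). Mir200c had 0.13 with an error of 0.03 (adjusted p = 0.00017, same exact test), and Mir200b 0.14 with an error of 0.04 (adjusted p = 0.0047, same exact test). Mir141, at 0.12 with an error of 0.08, and Mir200a, at 0.09 with an error of 0.09, did not pass (adjusted p = 0.34 and 0.60, same exact test). The members that passed were those with the most counts, and the 5 ratios spanned 0.05 log2 units, less than the counting error of Mir141 or of Mir200a.

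That test allows for counting error only. In the overdispersed tests the variance was multiplied by 2.64, from the median gene, or by 18.95, from the mean over genes. The mean depends more on the genes that deviate most. With the overdispersion of the median gene added, Mir429 alone passed (adjusted p = 0.00085), against a background of 4.98% called higher. With that of the mean over genes, none of the 5 passed, and 0 of 5 had an unadjusted p below 0.05, against a background of 1.18% called higher.

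Genes of the marker lists were compared between the libraries by the same tests. The other epithelial list had 5 of 5 ratios above 0 with a median of 0.20, and summed to 15719 CPM in replicate 2 and 13182 CPM in replicate 1. Mir182, Mir183 and Mir96 belong to the same cluster, so these ratios need not be independent either. In this list 4 genes passed the exact binomial test, against 9.48% of all tested genes called higher. The same number passed with the median overdispersion, against 4.98%. With the mean overdispersion 2 passed, against 1.18%: Mir203 (adjusted p = 0.016) and Mir182 (adjusted p = 0.012).

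The blood list had 4 of 5 tested ratios above 0 with a median of 0.14, and summed to 1206 CPM in replicate 2 and 1027 CPM in replicate 1. The gene below 0 was Mir144, at −0.27 (adjusted p = 0.46, exact binomial test). The 1 call of the blood list by that test was Mir451a, higher in replicate 2, against 9.48% of all tested genes. That call also stood with the median overdispersion, against 4.98%, and was lost with the mean (adjusted p = 1). The mesenchyme list had a median of −0.05, and its summed level was 60228 CPM in replicate 2 and 63518 CPM in replicate 1. By the exact binomial test 1 of its 8 genes, Mir143, was higher and 4 were lower, against 9.48% of all tested genes called higher and 11.8% called lower. With the median overdispersion 1 was higher and 3 were lower, against 4.98% called higher and 6.40% called lower. With the mean overdispersion Mir143 was lost (adjusted p = 0.11), and Mir214 (adjusted p = 0.016) and Mir140 (adjusted p = 0.00050) remained lower, against 1.66% called lower. In the endothelial list the median was −0.02. Of its 3 genes 1, Mir126a, was lower by the exact binomial test, against 11.8%, and was lost with either overdispersion. The 2 tested skeletal muscle genes had a median of −0.17 and the 2 tested neural genes 0.12, without a call. The part of these lists in the Mir200 difference was not tested.

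**Figure D4:**
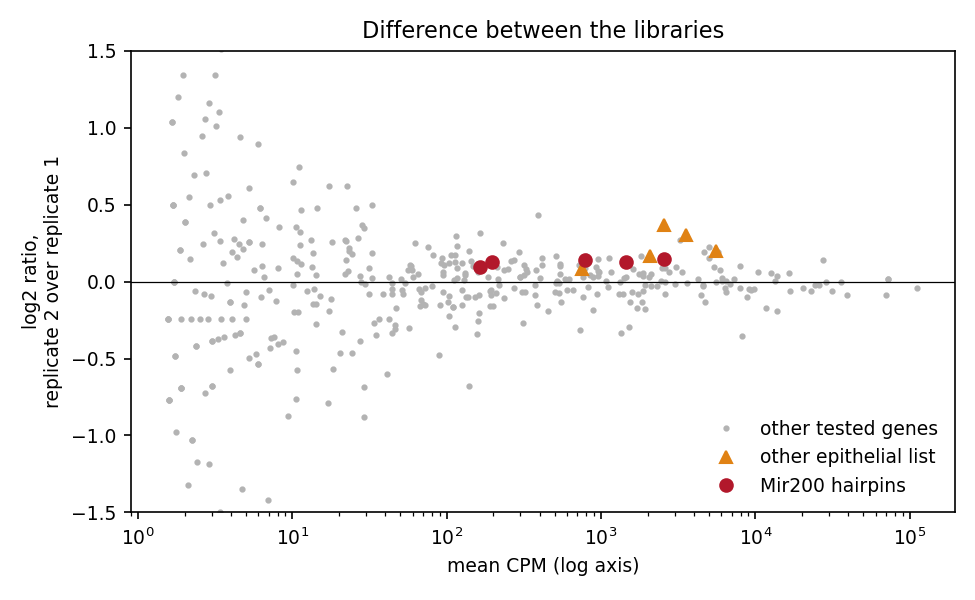
Log2 ratio of replicate 2 over replicate 1 (vertical axis) against mean CPM on a log axis for the tested genes, with Mir200 hairpins as red circles, the other epithelial list as orange triangles and other genes in grey; 6 genes lie beyond the vertical axis limits. The Mir200 hairpins lie between 0.09 and 0.15, and the epithelial markers between 0.08 and 0.37.

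Sequence around the chromosome 4 cluster was examined for the E-box that ZEB factors are known to bind, because its 3 hairpins were counted on the strand of a common annotated host. The window around the start of Gm13648 at chr4:156059753-156060052, minus strand, GRCm38.p6, from RefSeq, covers 250 bases before the start and 50 after it. The E-box letters are in capitals.
Gm13648: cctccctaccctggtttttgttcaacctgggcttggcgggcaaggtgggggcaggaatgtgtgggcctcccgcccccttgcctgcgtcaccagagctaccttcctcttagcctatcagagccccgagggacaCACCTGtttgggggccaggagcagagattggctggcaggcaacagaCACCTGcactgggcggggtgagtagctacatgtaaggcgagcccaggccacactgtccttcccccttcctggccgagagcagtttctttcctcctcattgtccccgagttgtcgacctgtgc

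The search used CACCTG and its reverse complement CAGGTG, so both strands were covered and the motifs cannot overlap. The window held CACCTG at 118 and at 72 bases before the start. Of 32851 windows in the RefSeq table, 20.2% held at least 1 match and 2.88% held 2 or more. The RefSeq table held no window under the name Gm15884, so the host of the chromosome 6 cluster was not searched. A match describes letters in this window; whether this start is used in limb was not measured.

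The seed groups were also set against the 3′ untranslated region of Zeb2, the textbook target of this family, whose messenger RNA was not measured here. In the Zeb2 transcript of GENCODE M21 with the longest such region it is 4941 bases long and held 5 complements of the AAUACUG seed (CAGTATT) and 4 of the AACACUG seed (CAGTGTT). Of 822 genes with a region at least as long, cut to the same length, Zeb2 alone (0.122%) held as many of the first. As many of the second were held by 1.22%, Zeb2 included. Because Zeb2 was chosen as a known target, these shares are a description and not a test, and Zeb1 was not searched. A site of each seed is shown with its complement in capitals, the first from base 820 and the second from base 782 of the region.
AAUACUG match: ttgaagcacccgtgtCAGTATTa
AACACUG match: cctttgcaccagcttCAGTGTTa

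The hairpins of both seed groups thus have matches in Zeb2, and the more abundant group had 1 more. These are matches of letters and say nothing of repression in limb.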

How the data were processed

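Small RNA was measured in 2 libraries of embryonic mouse limb, 1 file per library. The authors deposited raw counts per miRNA gene without normalization; assembly mm10 and annotation M4 come from the notes deposited with the samples. Aligner and counter were not given in the sources used here. The count columns have no header; the column holding nearly all counts was taken as sense, which rests on its values. Sense counts totalled 3459176 in replicate 2 and 2953085 in replicate 1. Unmapped, multimapping and no-feature reads, 52.3% and 54.7% of reads, stayed out of library sizes and tests; multimapping reads are in no gene's count. A count of 0 allows up to 0.867 and 1.02 CPM (3 counts).

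Of 1973 identifiers, 1894 matched GENCODE M21. CPM, shares with Wilson 95% intervals and log2 ratios were computed within libraries in Python 3.11.15 (numpy 2.4.6, scipy 1.17.1, pandas 2.3.3). A preparation bias tied to sequence and common to both libraries would not appear in the SD. Libraries were compared for all genes by an exact binomial test with edgeR 4.0.16 TMM factors (prior count 0.5, threshold 0.05). The test was tried on simulated data that held counting error only, which cannot show its behaviour under overdispersion. The quasi-likelihood test of edgeR needs a contrast between groups. DESeq2 1.42.0 size factors, strands, denominators, filters, overdispersion and single libraries were alternatives. Named genes were the members, the other epithelial list and each member's nearest gene in level; marker lists are named by their extremes and genes at 0. The Zeb2 search, Mir451a, Mir144, Mir143, Mir140, and Mir9-2 and the other genes at 0, were added after the values were seen. Members and lists were chosen with earlier results of these data known.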

Additional observations from a re-analysis of the deposited data

How the results depend on the processing

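The sign of every member's library ratio, of the cluster ratio and of the seed group ratio held under the alternatives run for them. Among all tested genes the balance of calls in replicate 2 turned with the scaling or the filter: 45 were higher and 42 lower with total sense counts as library sizes, and 40 and 39 with no filter, against 40 and 50. With all reads in the file as denominator, the family's share was 0.235% against 0.517%, and 3 hairpins in place of 5 reached 100 CPM in both libraries; every member's level fell by construction. The cluster ratio was 0.50 log2 units as a mean per hairpin and 0.36 as a geometric mean, and the seed group ratio 3.15 and 2.99, against 1.08 and 3.73 for sums. The seed group ratio was 4.35 on chromosome 4 alone, where 2 hairpins are summed against 1, and 2.89 on chromosome 6 alone, with 1 against 1. The overdispersed tests called 21 genes higher and 27 lower in replicate 2 with the median squared deviation, and 5 and 7 with the mean. Under them 2 and 3 of the Mir200 calls were lost, Mir200b and Mir200c with the median and Mir429 too with the mean. Taking 1 library at a time, the family's share ran from 0.490 to 0.543%, the cluster ratio from 1.08 to 1.09 and the seed group ratio from 3.72 to 3.75. Both strands together, TMM or DESeq2 scaling and the filter changed no member's call. No paired analysis was possible because there is only 1 group of samples. The counts of Mir200a and Mir141, at most 715 in a library, limit the precision of their ratios.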

Other observations

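On the strand opposite the Mir200 hairpins, Mir141 had 3 counts in replicate 1 and 0 in replicate 2, and Mir200b, Mir200a, Mir429 and Mir200c had 0 in both, whereas 2.26% of all gene counts in replicate 2 and 2.18% in replicate 1 were on the opposite strand. The gaps between neighbouring hairpins were 695 bases from Mir200b to Mir200a, 908 from Mir200a to Mir429 and 336 from Mir200c to Mir141. Of the 10 pairs of 3′ arms, Mir200a and Mir429, which have different seeds, share a run of 12 bases, longer than the 9 that Mir429 shares with Mir200b of its own seed group.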
